A study of Homo sapiens with 12 samples.

Results

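The receptor tyrosine kinase genes are described here as a set of 57 genes, taken by symbol, with no measured value used to choose them. They are 57 of the 28512 named genes in each file, and fall into 21 receptor families. Polyadenylated RNA had been sequenced from SUM159, MDAMB231 and HCC1806, which are established triple-negative breast carcinoma lines, after 72 h of treatment. The treatments were DMSO (the vehicle), JQ1, GSK2801 and both inhibitors together, with 1 library for each line and treatment, which makes 12 libraries. JQ1 is an inhibitor of the bromodomains of the BET proteins, and GSK2801 is an inhibitor of the bromodomains of BAZ2A and BAZ2B. The JQ1 dose was 300 nM in SUM159, 100 nM in MDAMB231 and 500 nM in HCC1806, and the GSK2801 dose was 10 µM in every line. The medium of SUM159 and MDAMB231 was DMEM/F12, supplemented with serum, hydrocortisone and insulin, and that of HCC1806 was RPMI with serum. Line, JQ1 dose and, for HCC1806, medium cannot be told apart. The labels name no engineered genetic change in any group.

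Receptor tyrosine kinases are single-pass membrane proteins that bind a ligand outside the cell and carry a kinase domain inside it. Ligand binding brings receptors together, they phosphorylate one another, and adaptor proteins then dock and pass the signal to the MAP kinase and PI3 kinase pathways. Several members, among them ERBB3, PTK7, EPHB6 and EPHA10, have an impaired kinase domain and signal through partners, and the LMTK proteins phosphorylate serine and threonine in spite of their place in the family. Triple-negative breast cancers lack the oestrogen receptor, the progesterone receptor and amplified ERBB2, and EGFR is often high in them.

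The values are read estimates that the depositors scaled by 1 factor per library, and they are relative to the upper quartile of the library. The libraries held 24200000 to 46800000 estimated reads, and the 57 receptor genes held 56996 to 207601 of them, or 0.183% to 0.467% of the signal. A value under 10 is called near 0 here, and no fold change is given where a value compared is near 0. The lines differed in their markers. The summed value of 6 epithelial genes (EPCAM, CDH1 and 4 keratins) was 6167 to 9164 in SUM159, 14049 to 21837 in MDAMB231 and 110558 to 182503 in HCC1806. In SUM159 this sum was mostly KRT8 and KRT18, with EPCAM at 0.945 to 7.87 and CDH1 at 1.06 to 33.2. The summed value of VIM, ZEB1 and CDH2 was 97898 to 151154 in SUM159, 94285 to 143131 in MDAMB231 and 831 to 1592 in HCC1806. VIM made up most of it in SUM159 and MDAMB231, and CDH2 most of it in HCC1806. CDH2 alone was lower in MDAMB231, at 4.65 to 17.3, than in HCC1806, at 705 to 1412. ESR1 and PGR, the hormone receptors that define the subtype by their absence, did not exceed 12.9 in SUM159 and MDAMB231, and in HCC1806 ESR1 lay between 102 and 138 with PGR listed at 0. Because these are bulk libraries, fewer cells with a transcript and less of it per cell cannot be told apart.

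With DMSO, 36 of the 57 receptor genes had a value of at least 10 in SUM159, 35 in MDAMB231 and 37 in HCC1806. A core of 25 genes reached 10 in every line with DMSO, and 9 reached it in none. In all 12 libraries, 23 genes stayed at 10 or more and 5 stayed under 10. EPHA8 was listed at 0 in all 12. The core held EGFR, ERBB2 and ERBB3, INSR and IGF1R, FGFR1, FGFR3 and FGFR4, MET, AXL, TYRO3, PTK7, ROR1, RYK, DDR1 and several ephrin receptors. Among the 14 ephrin receptors, which bind membrane-bound ligands on neighbouring cells, 9 reached 10 in each line with DMSO.

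**Figure D1:**
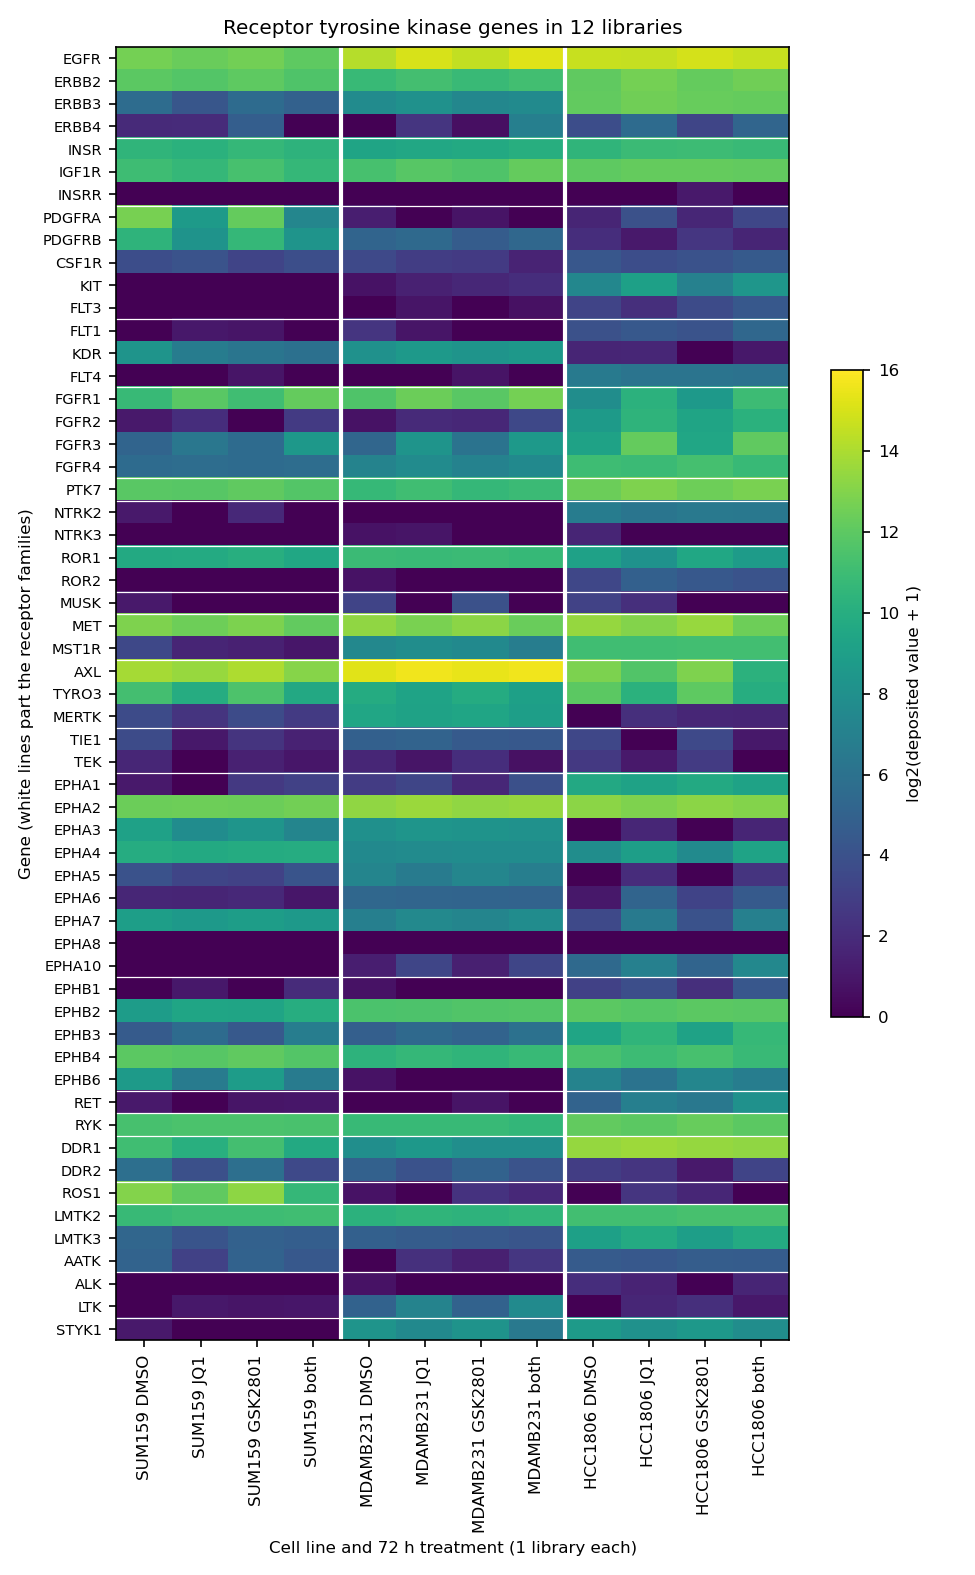
Rows are the 57 receptor genes in family order and columns the 12 libraries by cell line and 72 h treatment, with colour giving log2(deposited value + 1). EGFR, MET, AXL and EPHA2 are bright in every column, EPHA8 is dark throughout, and PDGFRA and ROS1 are bright only in the SUM159 columns.

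The remaining genes were held by some lines. Those at 10 or more with DMSO in HCC1806 alone numbered 9, namely ERBB4, KIT, FLT1, FLT4, FGFR2, NTRK2, EPHA1, EPHA10 and RET. SUM159 alone held PDGFRA and ROS1, and MDAMB231 alone held EPHA6 and LTK. SUM159 and MDAMB231 shared 7 that were under 10 in HCC1806, namely PDGFRB, KDR, MERTK, TIE1, EPHA3, EPHA5 and DDR2. TIE1 lay at the limit, with 11.7 in SUM159 and 9.61 in HCC1806, so it does not separate these lines. EPHB6 and AATK were held by SUM159 and HCC1806, and STYK1 by MDAMB231 and HCC1806.

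The order of the genes within a line was read from the value per kilobase (kb) of merged exon, since longer transcripts yield more reads. AXL, which binds the vitamin K-dependent ligand GAS6, stood first in MDAMB231 with 7715 per kb with DMSO, and first in SUM159 with 2908. In HCC1806 it stood at 1432, behind EPHA2, EGFR and MET. EPHA2, a receptor for A-type ephrins, had 1299.5 per kb in SUM159, 2484 in MDAMB231 and 2249 in HCC1806, where it ranked first on this measure. MET, the receptor of hepatocyte growth factor, had 1083, 1505 and 1582 per kb in the same order of lines. EGFR had 509, 1545 and 2025. The other places among the 5 highest were taken by ROS1 (1059) and PDGFRA (679) in SUM159, by ROR1 (282) in MDAMB231 and by the collagen receptor DDR1 (1239) in HCC1806. The 5 highest held 62.8% of the summed value per kb of all 57 genes in SUM159, 85.8% in MDAMB231 and 60.1% in HCC1806. With 1 library per line and treatment these levels carry no error, and ranks that lie close together are not resolved. Per kb of the longest transcript instead, FGFR1 took the place of ROR1 in MDAMB231, and the order in HCC1806 became DDR1, EGFR, EPHA2, MET and AXL, so first place there depended on the length used.

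**Figure D2:**
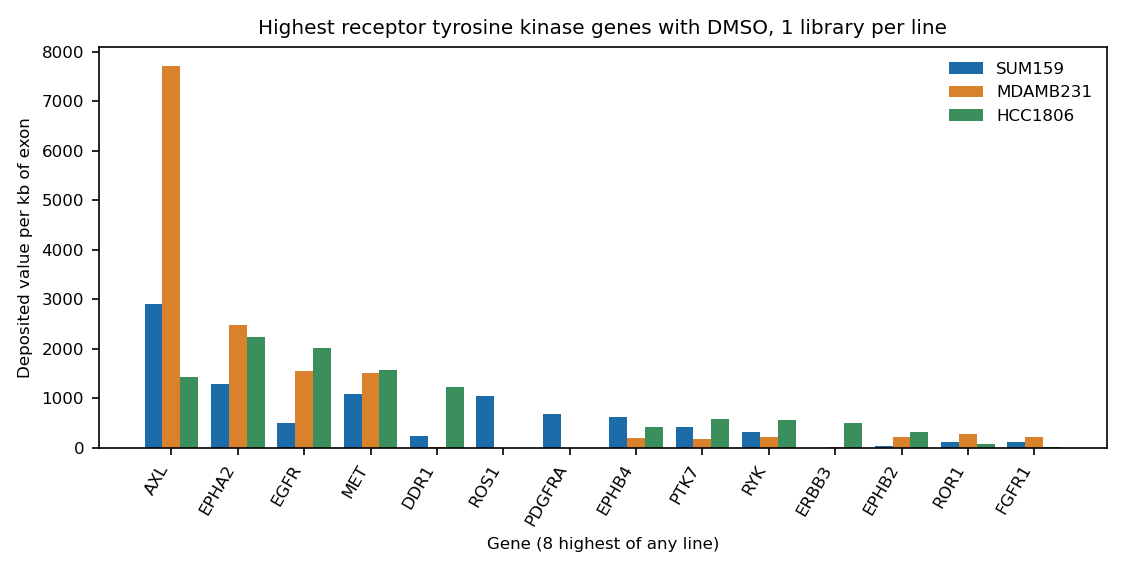
Bars give the deposited value per kb of merged exon with DMSO, 1 library per line and so without an error bar, for the receptor genes among the 8 highest of any line. AXL is the tallest bar in MDAMB231 at 7715 per kb, and ROS1 and PDGFRA have visible bars in SUM159 alone.

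SUM159 held the PDGF receptors, which respond to platelet-derived growth factor in mesenchymal cells. PDGFRA was 6604, 412, 4788 and 165 in SUM159 with DMSO, JQ1, GSK2801 and both. It did not exceed 1.51 in MDAMB231 and was 2.14, 14.3, 2.34 and 9.60 in HCC1806 in the same order. Both SUM159 libraries with JQ1 lay far under the pair without it, by 16-fold with JQ1 against DMSO and 40.1-fold with both against DMSO. PDGFRB was 1385, 294, 1637 and 307 in SUM159, 34.7, 43.8, 24.4 and 39.3 in MDAMB231 and at most 4.69 in HCC1806. In SUM159 it was 4.71-fold lower with JQ1 than with DMSO, whereas the 4 MDAMB231 values spanned a narrow range. ROS1, known for gene fusions in lung cancer, was 8323, 4357, 9886 and 1639 in SUM159 and at most 4.56 elsewhere. It was 1.91-fold lower with JQ1 and 5.08-fold lower with both than with DMSO. These are single libraries of 1 line, so no test applies to the ratios.

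KDR, the main VEGF receptor of blood vessels, was 304, 105, 72.6 and 59.5 in SUM159 and 271, 391, 309 and 366 in MDAMB231, and at most 2.28 in HCC1806. All 3 treated SUM159 libraries were below the DMSO library, by 2.89-fold with JQ1, 4.18-fold with GSK2801 and 5.10-fold with both, while in MDAMB231 all 3 were above it. Some markers of other cell types also differed among the SUM159 libraries. The endothelial gene PECAM1 was 730.1, 227, 1145 and 290.1 in the order DMSO, JQ1, GSK2801 and both, and 1 of the 5 endothelial markers (among them the receptor gene TIE1) reached 10 in all 4 libraries, with a summed value of 238 to 1157. CDH5, VWF and CLDN5 were near 0 in every SUM159 library. The blood marker PTPRC was 422, 4.25, 60.4 and 2.83 in the same order, and CD14 was 80.9, 15.9, 130.4 and 49.1. CD74 and CD3E were near 0 in every SUM159 library. Their part in the PDGFRA, PDGFRB, ROS1 and KDR values was not tested.

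HCC1806 held KIT, the receptor of stem cell factor, at 168, 542, 130.1 and 334, with no value above 3.33 in the other lines. Its level with JQ1 was 3.23-fold that with DMSO. FGFR2 was 412, 1366, 635 and 1204 in HCC1806 and near 0 in the other lines apart from 10.0 in MDAMB231 with both. Its HCC1806 level with JQ1 was 3.31-fold that with DMSO. RET, the receptor of GDNF-family ligands, was 33.1, 118, 85.5 and 267 in HCC1806 and at most 1.17 elsewhere. Each of the 3 treated HCC1806 libraries exceeded the DMSO library for RET, by 3.58-fold, 2.58-fold and 8.05-fold. LTK, a relative of ALK, was 32.4, 141, 31.7 and 200.1 in MDAMB231 and at most 3.52 elsewhere, with 4.34-fold more with JQ1 than with DMSO. STYK1 was 316, 189.9, 296 and 88.0 in MDAMB231 and 428, 272, 375 and 227 in HCC1806, at most 1.17 in SUM159, and lower with JQ1 than without it in both lines that held it.

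**Figure D3:**
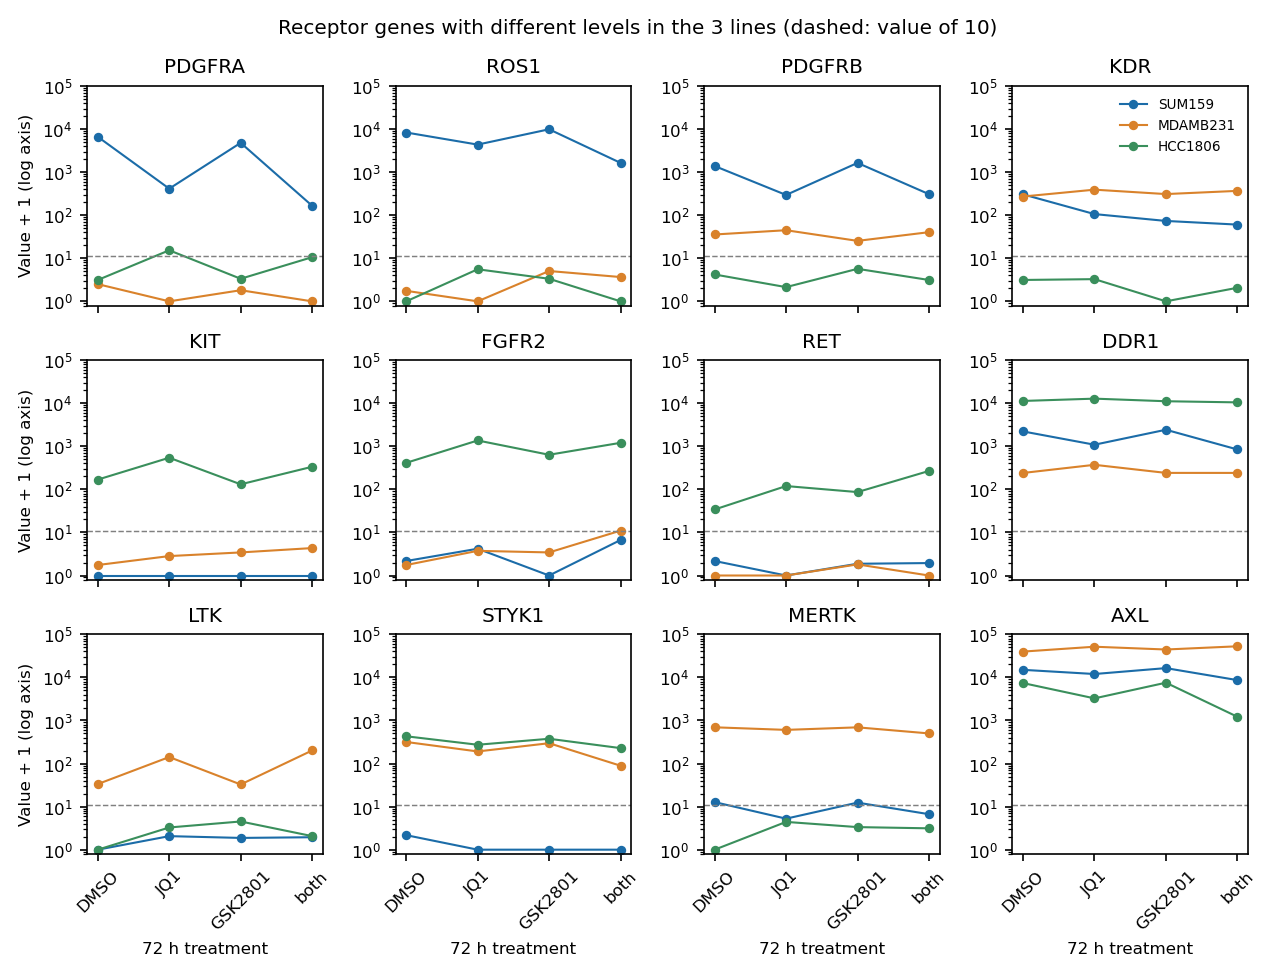
Each panel gives the deposited value + 1 of 1 gene on a log axis across the 4 treatments, with 1 point per library and 1 colour per line, and a dashed line at a value of 10. PDGFRA and ROS1 lie above the dashed line in SUM159 and KIT, FGFR2 and RET in HCC1806, and AXL is shown beside them as a gene that every line held.

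The lines were compared over their 4 treatments with limma on log2(value + 1), with the treatment in the model. The 4 libraries of a line are its 4 treatments, not repeat cultures. The p-values between lines therefore measure how evenly a difference held across treatments, not the spread between cultures. A total of 47 of the 57 genes had a mean of at least 10 over the 12 libraries and entered the tests. The 10 that did not were EPHA8, INSRR, NTRK3, ALK, TEK, MUSK, FLT3, EPHB1, ROR2 and FLT1. The means nearest to this limit were 12.1 for TIE1 and 12.1 for CSF1R inside it and 8.22 for FLT1 and 6.32 for ROR2 outside it. SUM159 and MDAMB231 differed in 34 of the 47, where 60.4% of all 14232 genes tested differed, with 15 higher in SUM159 (32% of all genes) and 19 lower (28.5%). HCC1806 differed from the mean of the others in 42 of 47, where the share of all genes was 72.6%, with 28 higher (37.2% of all genes) and 14 lower (35.5%). A gene that entered through 1 line alone had to differ, so these counts describe the set and are not support for a difference from other genes. Of the genes called, 20 in each contrast stayed at 10 or more in every library compared.

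Between SUM159 and MDAMB231, the 5 largest differences in each direction were in genes near 0 in at least 1 library, except PDGFRB. STYK1, MERTK, MST1R, LTK and EPHA6 were lower in SUM159, and ROS1, PDGFRA, EPHB6, PDGFRB and AATK were higher. PDGFRB differed by 4.24 ± 0.52 on the log2 scale (SE, 4 libraries per line, 1 per treatment, adjusted p = 1.1e-04). Among genes at 10 or more throughout, EGFR was lower in SUM159 by 5.06-fold (log2 difference -2.34 ± 0.23, adjusted p = 2.9e-05) and AXL by 3.70-fold (-1.89 ± 0.41, adjusted p = 0.0034). DDR1 was higher in SUM159 by 5.55-fold (2.47 ± 0.29, adjusted p = 8.5e-05), with no overlap of the 4 values of each line.

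HCC1806 stood apart from the other lines by EPHA3, KDR, ROS1, PDGFRB and MERTK on the lower side and by FGFR2, KIT, EPHA1, MST1R and RET on the higher side, each of which was near 0 in some library. Of the genes at 10 or more throughout, 16 were higher in HCC1806 and 4 were lower. ERBB3, the neuregulin receptor that pairs with ERBB2, was 4621, 5830.0, 4999 and 4697 in HCC1806. It was 50.4, 18.1, 48.1 and 30.2 in SUM159, and 209, 277, 172 and 203 in MDAMB231. No value of ERBB3 in HCC1806 overlapped with the other lines, and the difference was 58.1-fold (5.86 ± 0.27 on the log2 scale, adjusted p = 1.3e-07). LMTK3 (26.4-fold), EPHB3 (24.3-fold), FGFR4 (22.1-fold), DDR1 (18.0-fold) and FGFR3 (15.9-fold) were also higher in HCC1806. The 4 lower ones were EPHA7 (7.02-fold), AXL (6.31-fold), FGFR1 (5.30-fold) and ROR1 (2.63-fold).

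JQ1 against DMSO asks which receptors differ with JQ1 in the mean over the 3 lines, and a call does not require a response in each. Of the 47 genes tested, 3 rose with JQ1 and 2 fell, while 22.6% of all genes tested passed the threshold (9.52% higher and 13.1% lower). FGFR3, FGFR1 and EPHB3 rose, and MET and TYRO3 fell. The receptor genes called were 10.6% of the 47. The median log2 difference was 0.09 over the 47 genes and -0.08 over all genes. The split of all calls was 1355 higher and 1868 lower, and 1679 higher and 1472 lower after a trimmed-mean rescaling, under which the same 5 receptor genes were called in the same directions.

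FGFR3 (GENCODE v29, GRCh38, chr4:1793293-1808872) and FGFR1 (chr8:38400215-38468834) are receptors for fibroblast growth factors. FGFR1 shares 0.997% of its exon bases with LETM2, so a small part of its reads may be uncertain. FGFR3 was 34.0, 80.7, 47.2 and 365 in SUM159 with DMSO, JQ1, GSK2801 and both. It was 38.4, 317, 67.4 and 403 in MDAMB231 and 587, 4690.0, 712 and 4329.9 in HCC1806. In every line both libraries with JQ1 exceeded both without it, and with JQ1 alone the gap was smallest in SUM159. The rise with JQ1 was 5.31-fold (log2 difference 2.41 ± 0.39, SE, n = 3 lines, limma with Benjamini-Hochberg adjusted p = 0.0044). FGFR1 was 1794, 3795, 2211 and 4794 in SUM159, 3077, 5325, 3845 and 6554 in MDAMB231 and 229, 1259.6, 377 and 2006 in HCC1806. It was again higher in each library with JQ1 than in either library of the same line without it. The rise of FGFR1 was 2.72-fold (1.44 ± 0.35, adjusted p = 0.020). The other FGF receptors did not pass. FGFR2 had an adjusted p of 0.086, and FGFR4 differed by 0.21 ± 0.21, with a 95% interval of -0.27 to 0.69.

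EPHB3 (chr3:184561784-184582409) is a receptor for B-type ephrins. It was 23.4, 46.7, 21.0 and 109 in SUM159, 27.9, 43.8, 33.3 and 62.7 in MDAMB231 and 683, 1434, 588 and 1714 in HCC1806, again higher with JQ1 than without it in each line. Its rise was 1.85-fold (0.89 ± 0.28, adjusted p = 0.049), close to the threshold, and EPHB3 missed it with low-value genes kept in the fit. MET (chr7:116672390-116798386) was 7622, 5655, 7439.6 and 4497 in SUM159, 10592, 7151, 9619.9 and 5143 in MDAMB231 and 11135, 8493, 12067 and 5548 in HCC1806. Each library with JQ1 lay below the libraries of its line without it, and the library with both was the lowest in each line. The fall of MET with JQ1 was 1.38-fold (-0.46 ± 0.09, adjusted p = 0.0097). TYRO3 (chr15:41557675-41583586), which like AXL binds GAS6, was 2412, 943, 3019 and 821 in SUM159, 909.6, 618, 913 and 556 in MDAMB231 and 3997, 1205, 4149 and 1019 in HCC1806. It fell 2.32-fold with JQ1 (-1.21 ± 0.27, adjusted p = 0.013), and the gap was smallest in MDAMB231.

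The comparison of both inhibitors with GSK2801 alone uses none of the libraries of JQ1 against DMSO, so each line gives 2 separate pairs with and without JQ1. Of the 23 genes at 10 or more in all 12 libraries, FGFR1, FGFR3 and EPHB3 were higher with JQ1 in 6 of 6 pairs and MET and TYRO3 lower in 6 of 6, and no other gene was one-sided. The pairs of JQ1 with DMSO are those that gave the calls above, so they add no separate support. The share of all genes with 1 direction in 6 of 6 pairs was not counted, so nothing particular to receptors is read from it. The calls of JQ1 against DMSO depended on which lines were in the fit. FGFR3 passed without SUM159 (adjusted p = 0.020) and missed without MDAMB231 or without HCC1806 (up to 0.084). FGFR1 passed without HCC1806 (0.045) and missed without either other line (up to 0.11). TYRO3 passed without MDAMB231 (0.018) and missed without SUM159 or HCC1806 (up to 0.15). MET missed without any 1 of SUM159, MDAMB231 and HCC1806 (0.055 to 0.078), and so did EPHB3 (0.084 to 0.28). The p-values measure the spread between lines, not between cultures of a line.

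**Figure D4:**
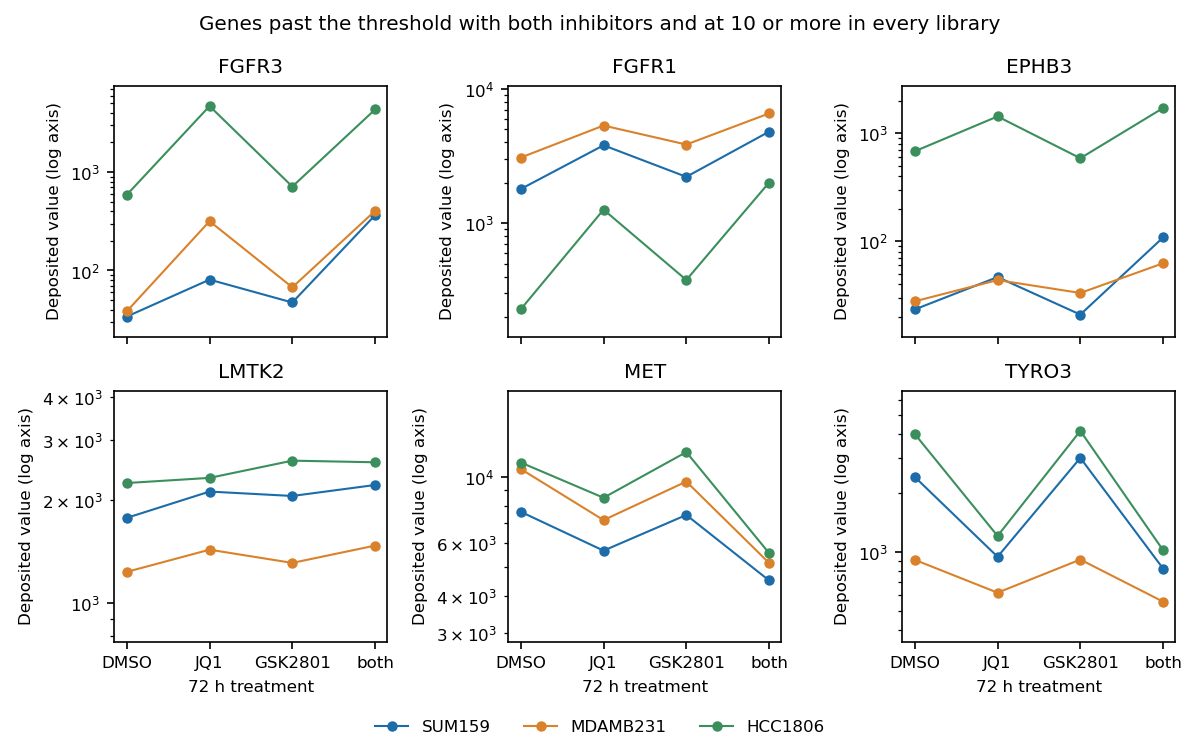
Each panel gives the deposited value of 1 gene on a log axis across the 4 treatments, with 1 point per library and 1 colour per line. In every line FGFR3, FGFR1 and EPHB3 are higher and MET and TYRO3 lower in the libraries with JQ1 than in those without it, whereas LMTK2 varies within a narrow range.

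The sequences around the start sites of 4 of these 5 genes are shown because each of these genes had 1 direction in all 6 pairs with and without JQ1. They are RefSeq windows on GRCh38.p14, from 250 bases before to 50 after a start, written 5′ to 3′ on the plus strand of the genome, which is the strand of all 4 genes. RefSeq windows were matched for 51 of the 57 receptor genes (83 windows). FGFR1, which also had 1 direction in all 6 pairs, was not among the 51 and so is not shown. Capitals mark exact matches, on either strand, to the GC box GGGCGG, to TATAAA and to the AP-1 motif TGANTCA. Different motifs among these cannot share a base, but GC boxes can overlap one another.

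FGFR3 at chr4:1793043-1793342: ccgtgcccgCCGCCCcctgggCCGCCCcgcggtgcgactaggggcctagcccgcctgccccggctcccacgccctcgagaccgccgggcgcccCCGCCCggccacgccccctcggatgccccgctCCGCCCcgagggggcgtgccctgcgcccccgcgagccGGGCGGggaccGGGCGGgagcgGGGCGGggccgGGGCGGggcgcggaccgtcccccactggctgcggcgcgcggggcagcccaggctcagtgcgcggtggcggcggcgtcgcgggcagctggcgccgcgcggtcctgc

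EPHB3 at chr3:184561535-184561834: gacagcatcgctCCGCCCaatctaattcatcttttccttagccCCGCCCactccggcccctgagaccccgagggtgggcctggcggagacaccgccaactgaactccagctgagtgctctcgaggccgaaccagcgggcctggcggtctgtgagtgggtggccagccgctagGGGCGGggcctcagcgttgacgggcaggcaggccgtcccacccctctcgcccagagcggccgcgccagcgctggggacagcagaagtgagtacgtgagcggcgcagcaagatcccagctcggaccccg

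MET at chr7:116671946-116672245: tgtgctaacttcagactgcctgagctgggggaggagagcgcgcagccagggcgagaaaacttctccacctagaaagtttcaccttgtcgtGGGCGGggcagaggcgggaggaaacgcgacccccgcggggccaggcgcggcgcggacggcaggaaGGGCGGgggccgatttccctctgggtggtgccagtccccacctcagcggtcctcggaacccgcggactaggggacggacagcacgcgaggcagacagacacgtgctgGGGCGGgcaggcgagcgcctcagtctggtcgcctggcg

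TYRO3 at chr15:41558962-41559261: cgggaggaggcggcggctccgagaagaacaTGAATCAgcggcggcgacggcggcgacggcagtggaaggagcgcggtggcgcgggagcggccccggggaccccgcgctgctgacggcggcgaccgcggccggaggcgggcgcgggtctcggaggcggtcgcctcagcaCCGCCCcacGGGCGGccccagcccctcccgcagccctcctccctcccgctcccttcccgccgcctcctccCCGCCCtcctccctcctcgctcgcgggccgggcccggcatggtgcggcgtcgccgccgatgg

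The FGFR3 window held 8 GC boxes, and those of EPHB3, MET and TYRO3 held 3 each. The TYRO3 window had 1 AP-1 match, and a further TYRO3 window downstream, at chr15:41559722-41560021, held none of the 3 motifs. GC boxes occurred in 62.7% of the receptor windows and in 45% of the 35116 windows of all genes. TATAAA occurred in 7.23% of the receptor windows and 11.5% of all windows, and the AP-1 motif in 8.43% and 7.71%. The risers FGFR3 and EPHB3 and the fallers MET and TYRO3 thus all held GC boxes and lacked TATAAA in the windows shown.

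GSK2801 against DMSO gave 0 calls among the 47 receptor genes and 0 among all genes (0%), at an adjusted p under 0.05 with limma. Unadjusted p was under 0.05 for 2 receptor genes, INSR and KDR, and for 161 of all genes. KDR was lower with GSK2801 than with DMSO in SUM159 (log2 difference -2.05) and higher in MDAMB231 (0.19), and its values in HCC1806 were near 0. INSR, the insulin receptor, was 1395, 1182, 1627 and 1322 in SUM159, 651, 774, 824 and 1059.7 in MDAMB231 and 1398, 1924, 2044 and 1810.4 in HCC1806. It was higher with GSK2801 than with DMSO in all 3 lines, by 0.37 ± 0.16 on the log2 scale with a 95% interval of 0.00 to 0.74 and an adjusted p of 1.0. For the genes that responded to JQ1, the 95% interval of the GSK2801 difference was -0.37 to 1.40 for FGFR3, -0.35 to 1.25 for FGFR1, -0.23 to 0.19 for MET and -0.48 to 0.73 for TYRO3.

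Both inhibitors against DMSO called 8 of the 47 genes, with 34.8% of all genes called (15% higher and 19.8% lower). The split of all calls, 2135 higher and 2824 lower, became 2592 higher and 2291 lower after the trimmed-mean rescaling. The 5 that rose were FGFR3, FGFR1, EPHB3, LMTK2 and FGFR2, and the 3 that fell were MET, TYRO3 and STYK1. This comparison shares its DMSO libraries with that of JQ1. FGFR3 rose 9.24-fold (3.21 ± 0.39 on the log2 scale, adjusted p = 6.1e-04), FGFR1 3.68-fold (1.88 ± 0.35, 0.0043) and EPHB3 2.92-fold (1.54 ± 0.28, 0.0035). MET fell 1.91-fold (-0.94 ± 0.09, adjusted p = 2.9e-04) and TYRO3 2.66-fold (-1.41 ± 0.27, 0.0044). The change of LMTK2, which acts in vesicle transport, was small. Its values were 1775, 2119.7, 2058 and 2216 in SUM159, 1234, 1432, 1310.4 and 1473 in MDAMB231 and 2245, 2324, 2611 and 2582 in HCC1806, a rise of 1.20-fold with both (0.26 ± 0.09, adjusted p = 0.044). FGFR2 and STYK1 passed as well (adjusted p = 0.013 and 0.017), but with libraries near 0 in at least 1 line, so no fold is given. FGFR3, FGFR1 and MET also passed when any 1 line was left out. EPHB3 missed without HCC1806 (adjusted p = 0.054), TYRO3 without SUM159 or HCC1806 (up to 0.078), and LMTK2 without any 1 line (0.076 to 0.20), without the variance trend or with low-value genes kept. FGFR2 and STYK1 passed without SUM159 alone (0.034 and 0.034) and missed without MDAMB231 or HCC1806 (up to 0.086 and 0.13).

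Against GSK2801 alone, both inhibitors called 6 of the 47 genes, with 29% of all genes called (11.8% higher and 17.2% lower). That split, 1684 higher and 2448 lower, became 2155 higher and 1908 lower after the trimmed-mean rescaling. FGFR3 rose 6.48-fold (2.70 ± 0.39, adjusted p = 0.0018), EPHB3 3.0-fold (1.58 ± 0.28, 0.0039) and FGFR1 2.70-fold (1.43 ± 0.35, 0.017). FGFR2 passed too, with libraries near 0 and an adjusted p of 0.022. TYRO3 fell 2.90-fold (-1.54 ± 0.27, 0.0038) and MET 1.89-fold (-0.92 ± 0.09, 5.4e-04). FGFR3 and MET passed when any 1 line was left out. FGFR1 missed without SUM159 (adjusted p = 0.10), EPHB3 without HCC1806 (0.070), TYRO3 without SUM159 or HCC1806 (up to 0.075) and FGFR2 without any 1 line (0.070 to 0.11) or with a pseudocount of 10.

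The addition of GSK2801 to JQ1 called 0 receptor genes and 0% of all genes with limma. Unadjusted p was under 0.05 for MET and EPHB3 and for 1031 of all genes. MET was lower with both than with JQ1 alone in all 3 lines, with a log2 difference of -0.47 ± 0.09 (95% interval -0.69 to -0.26, adjusted p = 0.38). EPHB3 was higher in all 3 lines, by 0.65 ± 0.28 (0.03 to 1.28, adjusted p = 0.67). In SUM159, FGFR3 was 4.52-fold higher and EPHB3 2.33-fold higher with both than with JQ1, and PDGFRA was 2.50-fold and ROS1 2.66-fold lower. HCC1806 had 2.67-fold less AXL and 2.25-fold more RET with both than with JQ1. In MDAMB231, MST1R was 2.05-fold and STYK1 2.16-fold lower. These ratios compare single libraries.

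Whether JQ1 acted alike in the lines was tested with a JQ1 term per line, the mean of JQ1 against DMSO and of both against GSK2801. HCC1806 differed from the mean of the other lines in 19 of 47 receptor genes, with 25.1% of all genes called, and 12 of the 19 stayed at 10 or more in every library. The direction of the calls over all genes depended on the scaling, with 2057 higher and 1513 lower as deposited and 1609 higher and 1886 lower after the trimmed-mean rescaling. Among the receptor genes 11 were higher (14.5% of all genes) and 8 lower (10.6%) as deposited, and 10 and 9 after that rescaling. PDGFRA, TIE1, EPHA3, EPHA5, EPHA6, RET and DDR2 passed with libraries near 0 and are given no size. FGFR1 had a JQ1 effect of 2.43 (log2) in HCC1806 and 0.94 in the others, a difference of 1.49 ± 0.09 (adjusted p = 3.1e-04).

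EPHA7 and EPHA4, receptors for A-type ephrins, showed the same order. EPHA7 was 10.7, 90, 15.2 and 126 in HCC1806, 498, 399, 482 and 378 in SUM159 and 121, 186, 153 and 219 in MDAMB231, and its JQ1 effect was higher in HCC1806 by 2.85 ± 0.22 (adjusted p = 5.9e-04). EPHA4 was 224, 503, 197 and 625 in HCC1806, 962, 854, 905 and 964 in SUM159 and 192, 211, 220.0 and 221 in MDAMB231, with a difference of 1.40 ± 0.20 (adjusted p = 0.0036). In HCC1806 both libraries with JQ1 stood well above the pair without it for both genes. AXL went the other way. It was 7382, 3258, 7536 and 1219 in HCC1806, 14989.7, 11985, 16430.2 and 8653 in SUM159 and 39761, 51565, 44433 and 52749 in MDAMB231. The libraries with JQ1 were the lower pair in HCC1806 and SUM159 and the higher pair in MDAMB231. The JQ1 effect on AXL in HCC1806 was below the mean of the other lines, with a difference of -1.75 ± 0.36 (adjusted p = 0.014). LMTK3 (difference 1.19 ± 0.34) and ERBB2 (0.41 ± 0.12) were likewise higher in HCC1806, and TYRO3 (-0.75 ± 0.17), ROR1 (-0.65 ± 0.18), FGFR4 (-0.64 ± 0.19), EPHB2 (-0.49 ± 0.09), EPHB4 (-0.47 ± 0.11) and EPHA2 (-0.40 ± 0.09) lower. FGFR1, EPHA4 and EPHA7 passed with either other line left out. EPHA2, EPHB2 and ERBB2 missed without SUM159 (adjusted p = 0.052, 0.16 and 0.75). AXL, EPHB4, FGFR4, LMTK3, ROR1 and TYRO3 missed without MDAMB231 (adjusted p = 0.10, 0.31, 0.23, 0.057, 0.13 and 0.40). Keratins of HCC1806 also differed with JQ1, with KRT5 at 32771, 11269, 37479 and 9941 and KRT18 at 41297, 70551, 42786 and 100826 in the order DMSO, JQ1, GSK2801 and both, and their part in these results was not tested. The error in this model is how far JQ1 and GSK2801 fail to add up in each line, and it holds no repeat cultures.

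SUM159 and MDAMB231, which shared a medium and differed in JQ1 dose, differed in the JQ1 effect of 17 of 47 receptor genes, with 29.2% of all genes called. This contrast was chosen after the values were seen. The effect was lower in SUM159 for 16 genes (17.9% of all genes) and higher for 1, EPHB2 (11.4%). The split over all genes, 1617 higher and 2542 lower, became 2281 higher and 2048 lower after quantile scaling, with 3 receptor genes higher and 13 lower. At 10 or more throughout were 12 of the 17, and ERBB4, PDGFRA, EPHA10, EPHB6 and AATK were not. EGFR, ERBB2 and ERBB3 were among those lower in SUM159. ERBB4, near 0 in most of these libraries, missed without HCC1806 (adjusted p = 0.089), with low-value genes kept and without the variance trend. EGFR was 6379, 5298, 6225 and 4143 in SUM159 and 19349, 32867, 23232 and 38831 in MDAMB231. In SUM159 the libraries with JQ1 were the lower pair, in MDAMB231 the higher pair, and the effects of -0.43 and 0.75 differed by -1.18 ± 0.15 (adjusted p = 0.0030). In HCC1806 EGFR was 25359, 24205, 31932 and 25508, with no such order. ERBB2 was 3938, 3420.5, 4142 and 3084 in SUM159 and 1749, 2335, 1810.0 and 2285 in MDAMB231, with a difference of -0.69 ± 0.13 (adjusted p = 0.010). It shares 5.53% of its exon bases with MIEN1 on the opposite strand, where reads may be uncertain. For ERBB3 the difference was -1.36 ± 0.30 (adjusted p = 0.014).

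PDGFRB had the largest difference of those at 10 or more throughout, -2.82 ± 0.37 (adjusted p = 0.0031), from the values given above. DDR1, a collagen receptor, was 2215, 1087, 2423 and 844 in SUM159 and 239.6, 371, 240.3 and 240.1 in MDAMB231, and differed by -1.59 ± 0.24 (adjusted p = 0.0046). IGF1R, the receptor of insulin-like growth factors, was 2131, 1585, 2628 and 1645 in SUM159 and 2641, 3654, 3027 and 4843 in MDAMB231, and differed by -1.12 ± 0.15 (adjusted p = 0.0031). Both were lower with JQ1 in SUM159, and IGF1R was higher with JQ1 in MDAMB231. EPHA3 (-1.33 ± 0.37), TYRO3 (-0.98 ± 0.19), EPHA7 (-0.90 ± 0.25), EPHB4 (-0.56 ± 0.12) and PTK7 (-0.53 ± 0.14) made up the rest of the lower ones, and EPHB2 differed by 0.52 ± 0.11. Of these 12, ERBB3 and PTK7 missed the threshold without HCC1806 in the fit (adjusted p = 0.067 and 0.055).

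**Figure D5:**
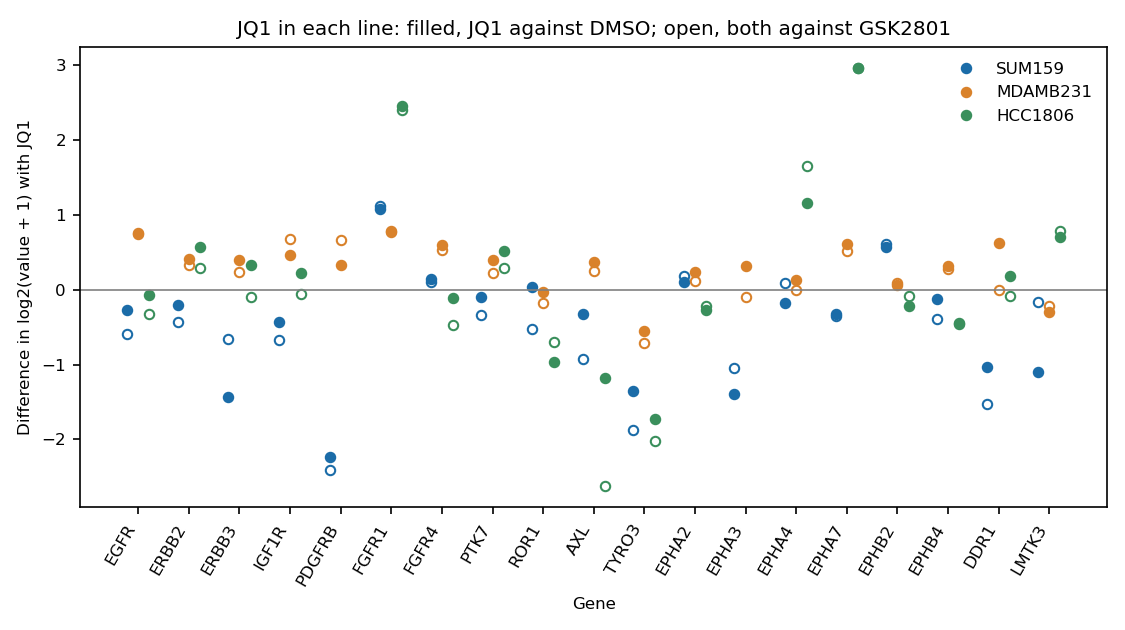
Points give the difference in log2(value + 1) with JQ1 for the 19 receptor genes whose JQ1 effect differed in either contrast between lines and that were at 10 or more in every library compared, 1 colour per line, filled for JQ1 against DMSO and open for both against GSK2801, each from a single pair of libraries. EGFR, ERBB3, IGF1R and PDGFRB lie below 0 in SUM159 and above or near it in MDAMB231, and EPHA7 reaches almost 3 in HCC1806; HCC1806 is left out for PDGFRB and EPHA3, where it was near 0.

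Within each line, ratios were taken for genes at 10 or more in both libraries and are described with no test. With JQ1 in SUM159, 2 of 31 receptor genes were at least 2-fold higher (FGFR1 and FGFR3) and 10 at least 2-fold lower, against 3.32% and 9.64% of all genes. Those lower were ERBB3, PDGFRA, PDGFRB, KDR, TYRO3, EPHA3, EPHB6, DDR1, DDR2 and LMTK3. In MDAMB231, 2 of 34 were higher (FGFR3 and LTK) and 0 lower, against 7.82% and 7.63% of all genes. HCC1806 had 10 of 37 higher and 3 lower, against 8.77% and 8.52%. The higher ones were ERBB4, KIT, FGFR1, FGFR2, FGFR3, EPHA4, EPHA7, EPHA10, EPHB3 and RET, and the lower ones AXL, TYRO3 and EPHB6. Lower genes outnumbered higher ones in SUM159 and the reverse held in HCC1806, from 1 pair of libraries each.

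With both inhibitors, 4 receptor genes were at least 2-fold higher and 9 lower in SUM159 (of 33), 5 and 2 in MDAMB231 (of 34), and 10 and 3 in HCC1806 (of 37). The shares of all genes were 6.12% higher and 12.0% lower in SUM159, 11.4% and 12.9% in MDAMB231, and 9.62% and 11.4% in HCC1806. EGFR was among the higher ones in MDAMB231 alone (2.01-fold). MET was at least 2-fold lower in MDAMB231 (2.06-fold) and HCC1806 (2.01-fold), and AXL in HCC1806 (6.06-fold). With GSK2801 alone, KDR was at least 2-fold lower in SUM159 (1 of 32 receptor genes), against 0.86% of all genes. RET was at least 2-fold higher in HCC1806 (1 of 36), against 0.66%. In MDAMB231 no receptor gene of 34 reached 2-fold, against 0.21% of all genes higher and 0.42% lower.

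Some genes crossed a value of 10 between DMSO and a treatment, with the higher value at 20 or more. ERBB4 was 2.73, 2.94, 26.2 and 0 in SUM159 with DMSO, JQ1, GSK2801 and both, so only the GSK2801 library reached 10. In MDAMB231 it was 0, 4.56, 0.61 and 119, so only the library with both did. In HCC1806, EPHA6 went from 1.07 with DMSO to 34.2 with JQ1 and 22.4 with both. ROR2, a WNT5A receptor, was 9.61, 29.6, 19.9 and 16 and FLT3, a receptor of blood precursors, 8.54, 3.42, 11.7 and 20.3 in HCC1806. AATK in SUM159 was 32.8, 7.72, 31.2 and 19.8, and with JQ1 it was the 1 gene to go from over 20 to under 10. Each crossing rests on 1 library.

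The genes around the receptors were counted in the same fits. Of 61 ligands, 50 were tested, and with JQ1 4 rose and 8 fell, with a median log2 difference of -0.36 against -0.08 over all genes. For comparison, 22.6% of all genes were called for JQ1 and 34.8% for both against DMSO, and nothing particular to a list is read from the counts here. NRG1, a ligand of ERBB3 and ERBB4, was 357, 123, 127 and 58.6 in SUM159, 1554, 564, 1288 and 385 in MDAMB231 and 9953, 872, 9408 and 582 in HCC1806, and fell by 2.17 ± 0.57 on the log2 scale (adjusted p = 0.026). VEGFA, the main ligand of KDR, was 1183, 610.3, 1284 and 515 in SUM159, 985, 344, 1133 and 324 in MDAMB231 and 886, 393, 1236 and 337 in HCC1806, and fell by 1.21 ± 0.15 (adjusted p = 0.0018). Both were lower in each library with JQ1 than in the libraries of the same line without it. The others that fell were ANGPT1, EGF, FLT3LG, PDGFB, PGF and PTN, and those that rose were AGRN, EFNA3, FGF18 and NRG2. With both inhibitors against DMSO, 5 ligands rose and 13 fell.

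Of 14 co-receptors and sheddases, 10 were tested, and with JQ1 the heparan sulfate proteoglycan SDC4 rose (0.63 ± 0.15, adjusted p = 0.018), whereas SDC1 (-0.71 ± 0.19, 0.028) and the VEGF co-receptor NRP2 (-1.14 ± 0.20, 0.0059) fell. Among 23 adaptors, 21 were tested, 3 rose and 0 fell. They were GAB1 (0.72 ± 0.19), CRK (0.32 ± 0.08) and DOK4 (0.96 ± 0.24), which dock on activated receptors or their scaffolds. Among 25 negative regulators, 23 were tested, 0 rose and 6 fell, with a median of -0.27. These were SPRY1 and SPRED3, inhibitors of the Ras pathway, SOCS2, LRIG3, the phosphatase UBASH3B and RNF43, which is best known for removing WNT receptors. SPRY1 was 185, 25.5, 149 and 31.2 in SUM159, 693, 356, 580.5 and 407 in MDAMB231 and 39.5, 12.5, 28.1 and 24.5 in HCC1806 (log2 difference -1.79 ± 0.43, adjusted p = 0.019). With both inhibitors against DMSO, 5 adaptors rose and 2 fell, and 1 negative regulator, CBLB, rose and 7 fell. None of these lists had a call with GSK2801 against DMSO or with both against JQ1, with limma. Unadjusted p was under 0.05 for 2 ligands in the former and for 3 ligands, 3 co-receptors or sheddases and 1 negative regulator in the latter.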

How the data were processed

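RNA from 12 libraries was analysed (3 lines, 4 treatments, 1 library each). Per the submitters' processing notes, reads were aligned with STAR 2.4 to hg38 and counted with Salmon 0.60, and the scaling step is not given in the sources used here. The labels name KAPA Stranded mRNAseq and TruSeq v2, so whether strand was kept is not settled. The deposited value is a signal, an estimated read count the authors scaled by 1 factor per library: in each library the 75th percentile of values above 0 was 1663.93, and 67.1% to 69.2% of them were whole multiples of 1 step, within 0.02. Whole reads could therefore not be recovered for every gene, so no count model or counting interval was used. Of 28539 entries per file, 27 had symbols turned into dates and were left out.

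The 14232 genes with a mean of at least 10 were fitted with limma 3.58.1 (R 4.3.3) as log2(value + 1), with a variance trend, line as a block (3 levels) and treatment (4 levels), 6 residual and 3.02 prior degrees of freedom. Fold changes are on the log2(value + 1) scale. The replicate number is the cell line, so same-numbered libraries come from the same line: libraries correlated at 0.935 to 0.993 within a line and 0.685 to 0.81 between lines. Libraries with JQ1 of 1 line share that line's response, so p-values may be too small. A second model gave each line its own JQ1 and GSK2801 effect (3 residual, 4.48 prior degrees of freedom); its contrast of SUM159 with MDAMB231 was added after the data were seen. P-values were adjusted over all genes of a contrast by Benjamini-Hochberg at 0.05. The fits were tested on simulated data with independent noise in each library. That test could not check how far a response shared by the libraries of a line makes p-values too small.

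Positions and exon lengths are from GENCODE v29 and start-site windows from RefSeq. Exons of 18 receptor genes share bases with another gene, at most 15.8% of the exon (PDGFRA), and reads there may be uncertain. The genes named were all members past the threshold in a treatment contrast or in the JQ1 contrast of HCC1806, the 5 highest per kb of exon in each line, those crossing 10 with 20 or more, the 5 largest differences each way between lines and examples of each family. The members, lists and tests were chosen with earlier results of these data known. Alternatives were another pseudocount, other low-value filters, trimmed-mean and quantile scaling, no variance trend, no block, fewer libraries and each line left out.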

Additional observations from a re-analysis of the deposited data

Results flagged for a closer look

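The effect of JQ1 differed between lines by a test of the difference itself for 19 receptor genes, each at 10 or more in every library of the lines compared. HCC1806 had a lower log2 effect of JQ1 than the mean of the other lines for AXL (-1.75), TYRO3 (-0.75), ROR1 (-0.65), FGFR4 (-0.64), EPHB2 (-0.49), EPHB4 (-0.47) and EPHA2 (-0.40), and a higher one for ERBB2 (0.41), LMTK3 (1.19), EPHA4 (1.40), FGFR1 (1.49) and EPHA7 (2.85). SUM159 had a lower effect than MDAMB231 for PDGFRB (-2.82), DDR1 (-1.59), ERBB3 (-1.36), EPHA3 (-1.33), EGFR (-1.18), IGF1R (-1.12), TYRO3 (-0.98), EPHA7 (-0.90), ERBB2 (-0.69), EPHB4 (-0.56) and PTK7 (-0.53), and a higher one for EPHB2 (0.52). ERBB2, TYRO3, EPHA7, EPHB2 and EPHB4 appear in both contrasts, which share the SUM159 and MDAMB231 libraries.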

How the results depend on the processing

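No direction of a called receptor gene turned under any alternative run. The cell line block mattered most: with no replicate block, the receptor genes called numbered 0 for JQ1 against DMSO, 0 for both against DMSO and 0 for both against GSK2801 with limma, where 0, 41 and 3 of all genes were called and 0, 1 and 2 receptor genes had an unadjusted p under 0.05. With only the 6 libraries compared, the counts were 2 (FGFR3 and TYRO3), 4 (FGFR1, FGFR3, MET and TYRO3) and 1 (FGFR3), in fits with fewer libraries. Without each line in turn they were 1 to 4, 3 to 8 and 4 to 7, namely 4, 2 and 1 for JQ1 without SUM159, MDAMB231 and HCC1806, 8, 6 and 3 for both against DMSO, and 4, 7 and 4 for both against GSK2801. These were in part other genes. For JQ1, 1, 1 and 1 of them were among the 5 called with all lines. For both against DMSO, 6, 5 and 3 were among the 8, and for both against GSK2801, 3, 5 and 3 were among the 6. For the JQ1 effect in HCC1806 against the other lines, 19 calls became 12 when genes with low values were kept and 10 with no variance trend (the cause was not tested). With SUM159 left out there were 15 calls, 14 of them among the 19. With MDAMB231 left out there were 14 calls, 12 higher and 2 lower, and 9 of them were among the 19. The number of all genes called without SUM159, MDAMB231 or HCC1806 was 1643, 1532 and 402 for JQ1 against DMSO, instead of 3223, 3120, 3156 and 2666 for both against DMSO, instead of 4959, and 2371, 2469 and 1647 for both against GSK2801, instead of 4132.

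Quantile scaling gave 7 higher and 8 lower receptor genes for the HCC1806 contrast, instead of 11 and 8. It moved the median of all genes from -0.10 to 0.04 for the JQ1 effect in SUM159 against MDAMB231 and from 0.03 to -0.09 for the level of HCC1806 against the other lines. ERBB2 missed the HCC1806 contrast under both rescalings and LMTK3 under quantile scaling, and EPHA3 and EPHA7 missed the SUM159 contrast under quantile scaling. Of the genes at 10 or more throughout, AXL, EPHA2, EPHB4, ERBB2, LMTK3, ROR1 and TYRO3 missed the HCC1806 contrast, and EPHB4 and PTK7 the SUM159 contrast, with no variance trend; with low values kept, ERBB2, FGFR4, LMTK3 and ROR1 missed the first, EPHA3 the second, EPHB3 JQ1 against DMSO and LMTK2 both against DMSO. FGFR2 missed both against GSK2801 with a pseudocount of 10. The number of genes at the limit with DMSO was 36 to 44 at a limit of 5, 31 to 34 at 20 and 26 to 30 at 50.

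With 1 library per line and treatment, 3 lines carry every p-value of a treatment contrast, and values near 0 rest on few reads. No p-value, also none between lines, rests on repeat cultures.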

Other observations

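The levels of some ligands can be set beside those of their receptors. HGF, the ligand of MET, did not exceed 4.37 in any library, while MET was at least 4497 in all 12. GAS6, the ligand of AXL, TYRO3 and MERTK, was 2433, 3494, 1932 and 2115 in SUM159 with DMSO, JQ1, GSK2801 and both, 3359, 16397, 3536 and 18319.9 in MDAMB231 and 9405, 7742, 9968 and 7436 in HCC1806, so it was several-fold higher with JQ1 in MDAMB231, the line with the highest AXL. KITLG, the ligand of KIT, was 1654, 3921, 1790.5 and 3430.0 in HCC1806, the line that held KIT. It was 672, 1097, 753 and 1319 in MDAMB231, where KIT was near 0, and in both lines it was higher in the libraries with JQ1. FGF2 was 1649.9, 2109.6, 1571 and 1454 in SUM159, at most 8.78 in MDAMB231 and 50.9, 11.3, 39.1 and 7.01 in HCC1806, and every line held FGFR1. PDGFB, which binds both PDGF receptors, was highest in HCC1806 at 1212, 352, 751 and 260.2, where both receptors were near 0 in most libraries.

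Some receptor genes lie next to each other on a chromosome. PDGFRA, KIT and KDR follow one another on chromosome 4 with gaps of 359.7 kb and 338 kb (GENCODE v29). With DMSO, PDGFRA reached 10 in SUM159, KIT in HCC1806, and KDR in SUM159 and MDAMB231. CSF1R and PDGFRB lie 0.464 kb apart on chromosome 5 on the same strand. CSF1R was at most 22.4 in any library, and PDGFRB reached 1637 in SUM159. LTK and TYRO3 lie 43.8 kb apart on chromosome 15 on opposite strands, and in MDAMB231 with JQ1 LTK was higher and TYRO3 lower than with DMSO.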
